A study of Homo sapiens with 4 samples.

Results

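The events described here are the alternative splicing events listed for genes of cytosolic ribosomal proteins, the proteins that build the ribosome together with its RNA. They were chosen by gene symbol alone, as every event in the 5 splicing tables whose symbol starts with RPL (large subunit) or RPS (small subunit), without the RPS6K kinases. The rule found 51 events in 32 genes, of 471 events in 353 genes in all. Large-subunit genes held 24 events in 16 genes and small-subunit genes 27 events in 16 genes. Of the canonical ribosomal protein genes, 16 of 46 for the large subunit and 16 of 31 for the small subunit had an event.

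The cells were RKO, an established human colorectal cancer line, grown in RPMI medium with fetal bovine serum. They were either wild type (WT) or overexpressed ZCCHC7 (OE), a protein with zinc-knuckle motifs that works with the exosome in the nucleus to degrade RNA. The 4 libraries were a WT input, a WT immunoprecipitate (IP), an OE input and an OE IP, so each group held 1 library. The labels named ZCCHC7 as the target of the IP, whereas the protocol described an SRSF1 antibody and then an m6A antibody. No label gives the construct that drives ZCCHC7, or says whether the OE cells were a clone or a pool, and the level of ZCCHC7 itself was not analysed here.

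Ribosomal protein genes are transcribed at high rates from housekeeping promoters and their introns are short and usually removed with high efficiency. Many of these introns carry small nucleolar RNAs (snoRNAs), which guide chemical modification of ribosomal RNA and are released from the spliced-out intron by exonucleases, with the nuclear exosome among the enzymes that process such RNAs. Most of these messages start with a 5′ terminal oligopyrimidine (TOP) tract, through which mTOR signalling controls their translation. Some, such as RPL3 and RPL12, are known to lower their own output by splicing to forms that are destroyed by nonsense-mediated decay.

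The start of the transcript is shown for the 6 genes whose counts carried the results below, since it is the feature that ribosomal protein messages share. Each window runs from 12 bases before the RefSeq transcription start to 18 bases from the start on, 5′ to 3′, on the + strand of GRCh38.p14. Capitals mark the longest run of C or T that touches the window from -5 to 10 around the start.
RPS15, chr19:1438384-1438413: gcaggcgcggaccaaagcgaTCTCTTCTga
RPLP1, chr15:69452806-69452835: taggcgcgagagCCCCTTTCCTCagctgcc
RPL10A, chr6:35468389-35468418: gcaagacatgctagTCTCTTTTCCggttag
RPS3, chr11:75399506-75399535: cgcgagccaCTTCCTTTCCTTTCagcggag
RPL28, chr19:55385920-55385949: cccctcgCCTTCCTCTTTCCgtctcaggtc
RPS9, chr19:54200846-54200875: gcgcttccgcgCCTCTTTCTCagtgaccgg
A run of at least 7 C or T on the coding strand lay at this place in 20 of 23 event genes with 1 window (87.0%). It lay there in 27 of 29 canonical ribosomal protein genes without an event (93.1%) and in 3849 of 22114 genes of all kinds (17.4%). The pyrimidine run was thus shared by ribosomal protein genes with and without a listed event. A run is a match of letters and not a mapped start of these libraries.

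For every event the tables give inclusion counts (reads for the form that keeps the alternative part) and skipping counts (reads across the junction that leaves it out). For mutually exclusive exons the skipping counts are instead those of the form with the other exon. Each cell holds 2 values per genotype, called first and second here, and no source says whether they are the input and the IP. The inclusion length written by the authors was the alternative part plus 149 bases in 471 of 471 events. It thus spans the whole alternative part, and reads from inside an intron, snoRNA reads among them, may be among the inclusion counts. In bulk RNA, a larger share in every cell and a larger number of cells with the form cannot be told apart.

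The libraries stood apart from each other before any comparison of genotypes. Over all 471 events the first and second OE values held 913 and 1519 counts, and the first and second WT values 3016 and 817. In genes outside the ribosome, inclusion counts made up 36.2% of the first and 84.8% of the second OE value, and 28.2% and 51.9% of the first and second WT value. Depth at single events was low. A ribosomal protein event held a median of 15 counts over all 4 values (3 to 174), against 7 for other events. The first OE value was empty at 35 of the 51 events, the second at 5, the first WT value at 19 and the second at 7, and 6 events had counts in all 4. Every listed event of any gene had at least 1 inclusion and 1 skipping count and counts in both genotypes, and 1 of 471 had equal shares in OE and WT with both values added. Counts of direction are therefore conditional on listing.

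Retained introns were the main class. They made up 34 of the 51 ribosomal protein events (18 large, 16 small), against 264 of 471 events overall. Alternative 5′ splice sites gave 7 events (4 large, 3 small), alternative 3′ splice sites 4 (all small-subunit), skipped exons 4 (1 large, 3 small) and mutually exclusive exons 2 (1 and 1). Among the 51 events, 4 pairs are each read against the same skipping junction. These include the retained intron and the alternative 3′ site of RPS3, and the retained intron and the skipped exon of RPS15. The others are the retained intron and the alternative 5′ site of RPL10A, and both skipped exons of RPS24. Ribosomal protein events held 1021 of 6265 counts (16.3%), more than their 10.8% share of events. RPLP1 alone held 17.0% of those counts, and 36.2% of the counts of the first WT value. The 12 genes with most counts held 72.3%.

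The retained introns lay inside coding regions. By the deposited annotation, all 34 introns separated coding exons of the chosen transcript, 2 were the first intron and 5 the last. The intron sequence was part of an exon only in transcripts without a coding biotype for 30 introns, and part of a coding transcript for 4. The introns ran from 79 bases (RPS2, intron 5 of 6) to 1845 bases (RPS16, intron 2 of 4) with a median of 284, against a median of 242.5 in other genes. The first intron of RPL37A, a zinc-binding protein of the large subunit, follows an exon with only 3 coding bases, the start codon. Its 5′ splice site is printed with the last 14 exon bases and the first 16 intron bases, GT in capitals, because it shows the start codon ending the exon.
RPL37A, chr2:216498864-216498893: gtcgcggcgacatgGTgagtgtgggtctct

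Several of the retained introns are known hosts of snoRNAs. A small RNA gene (small nucleolar, Cajal body or nuclear RNA, or microRNA) lay in 10 of 34 (29.4%), and in all 10 it was a snoRNA gene. The large subunit had 7 of 18 and the small 3 of 16. Retained introns of other genes had a small RNA gene of any of these kinds in 5 of 230 (2.17%). Among the snoRNA genes of the 10 introns were SNORD34 and SNORD35A in RPL13A, SNORD18C and SNORD16 in RPL4, SNORD36A in RPL7A, SNORD68 in RPL13, SNORA70 in RPL10, SNORA10 in RPS2 and SNORD54 in RPS20. These shares describe the listed introns and carry no test. Inclusion counts of the 10 introns were 2 of 5 and 19 of 34 in the first and second OE values, and 4 of 87 and 21 of 45 in the first and second WT values. In the 24 introns without a small RNA gene they were 18 of 41, 98 of 164, 36 of 265 and 38 of 122 in the same order. The second OE share was close in both sets (55.9% and 59.8%), whereas the WT shares differed. They were 4.6% and 46.7% in first and second values with a small RNA gene, and 13.6% and 31.1% without. The order of OE above WT held in both sets for first and for second values, although the first OE value held only 5 counts with a small RNA gene.

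**Figure D1:**
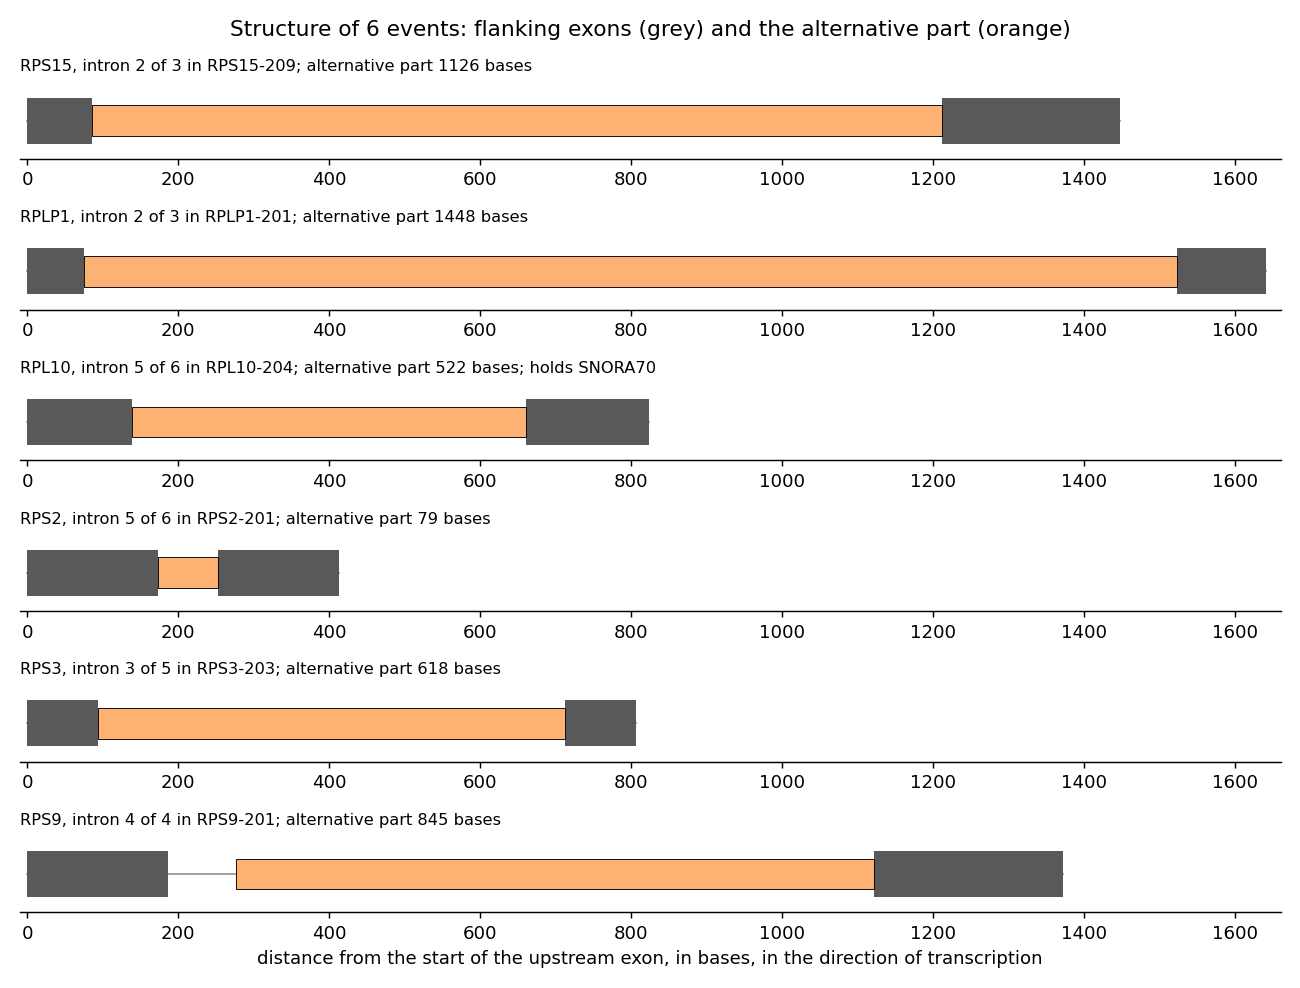
Structure of 6 events to scale: the x axis gives bases from the start of the upstream exon in the direction of transcription, grey boxes the flanking exons and orange boxes the alternative part. The retained introns run from 79 bases in RPS2 to 1448 in RPLP1, and the alternative part of RPS9 covers 845 bases at the 3′ end of its intron.

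Summed over the 51 events, the inclusion share was higher in OE than in WT for both values. In OE, 38 of 68 counts of the first value (55.9%, exact 95% interval 43.3 to 67.9) and 168 of 280 of the second (60.0%, 54.0 to 65.8) were inclusion counts. In WT they were 70 of 409 (17.1%, 13.6 to 21.1) and 86 of 264 (32.6%, 27.0 to 38.6). These Clopper-Pearson intervals cover counting error only, and reads without molecular identifiers are not independent molecules. Other genes were higher in OE too, with 36.2% against 28.2% in first values and 84.8% against 51.9% in second values. Without RPLP1, the first values of the ribosomal protein events were 38 of 50 (76.0%) in OE and 70 of 261 (26.8%) in WT. RPL10A gave 21 of these 38 inclusion counts in OE and 45 of the 70 in WT, with 0 skipping counts in both first values. They come from its retained intron and from an alternative 5′ site whose added part lies inside that intron. The same reads may thus be counted in both events. Without RPLP1, 12 events could be compared in first values, of which 5 were higher in OE, 0 lower and 7 equal.

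Summed inclusion shares were higher in OE than in WT for the large and for the small subunit. In second values the large subunit had 61.9% (52.5 to 70.6) in OE and 45.7% (36.8 to 54.7) in WT, and the intervals overlapped. The small subunit had 58.6% in OE and 20.4% in WT. In first values the large subunit had 54.7% of 53 counts in OE and 20.1% of 319 in WT. The small subunit had 60% of 15 and 6.67% of 90. Per event, 7 large-subunit events could be compared in first values, of which 1 was higher in OE, 0 lower and 6 equal. For the small subunit, 4 of 6 were higher, 0 lower and 2 equal. Added values mix first and second values unevenly, since 118 of 171 large-subunit counts in OE were second values and 319 of 446 in WT first values. With both values added, the large-subunit events had 102 of 171 inclusion counts in OE (59.6%) and the small-subunit events 104 of 177 (58.8%). In WT the large subunit had 122 of 446 (27.4%, 23.3 to 31.7) and the small subunit 34 of 227 (15.0%, 10.6 to 20.3). Leaving out RPLP1, whose 151 skipping counts weigh on the large subunit in WT, gave 41.4% in WT and 66.2% in OE. The median share per event was 87.1% for the large and 62.5% for the small subunit in OE, and 30.1% and 0% in WT. Correcting for the lengths of both forms lowered these medians to 73.2% and 21.6% in OE and to 13.3% for the large subunit in WT. No test was made between the subunits, since events of a gene share reads and the sets hold different genes.

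Retained introns of the small subunit had lower WT shares than those of the large subunit. Their inclusion counts were 0 of 58 in the first WT value, which allows a share of up to 5.17% by the rule of 3 counts (exact 95% upper limit 6.16%), and 8 of 70 in the second (11.4%). In OE they were 5 of 7 in the first and 63 of 108 in the second value (58.3%). The large-subunit introns had 40 of 294 (13.6%) and 51 of 97 (52.6%) in the first and second WT values, and 15 of 39 (38.5%) and 54 of 90 (60.0%) in OE. The second WT sum of the large subunit was carried by RPL10 (16 of 16 counts) and RPL28 (16 of 25). Its first-value inclusion counts in OE were those of RPL10A (11) and RPL28 (4), and RPLP1 gave 148 of the first-value WT skipping counts. At the 5 large-subunit introns with first-value counts in both genotypes, 0 were higher in OE, 0 lower and 5 equal. Per event, the median second-value share of the large-subunit introns was 80.0% in OE and 11.1% in WT, and 8 of 11 comparable introns were higher in OE and 3 lower. No inclusion count was found in WT for 13 of 16 small-subunit and 6 of 18 large-subunit introns, against 2 and 5 with none in OE.

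**Figure D2:**
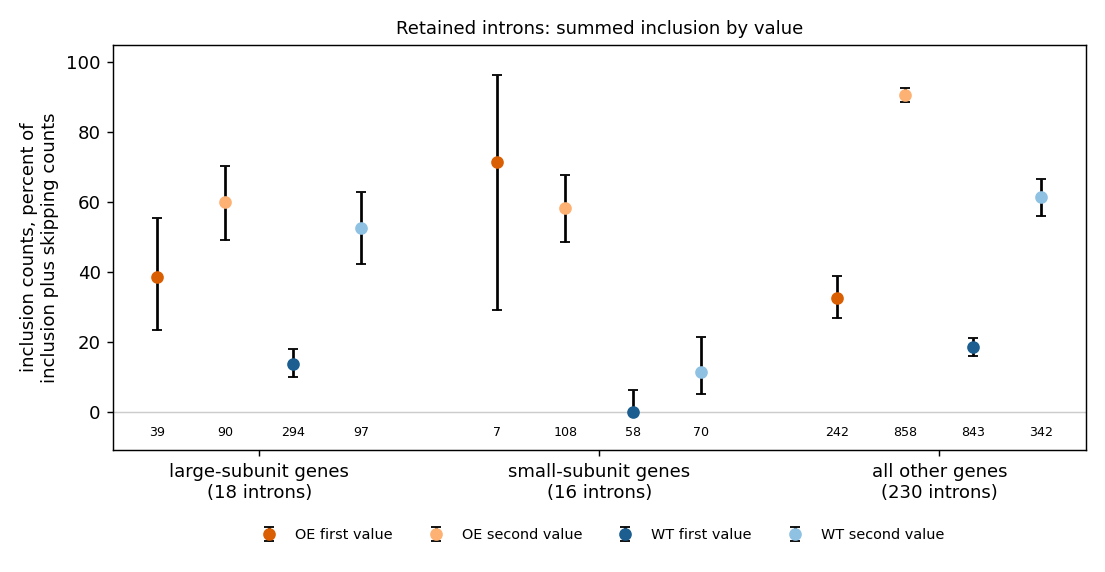
Inclusion counts as a percent of inclusion plus skipping counts (y axis), summed over the retained introns of large-subunit, small-subunit and all other genes, for each of the 4 values; bars are exact 95% intervals and the numbers under the points are total counts. Small-subunit introns had 0 of 58 inclusion counts in the first WT value, and other genes reached 90.7% in the second OE value.

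By direction, 40 of 51 events had a higher share in OE than in WT with both values added (17 of 24 large, 23 of 27 small) and 11 a lower one. Outside the ribosome it was 325 of 420 higher and 94 lower, so this split was also that of the listed events at large. First values could be set side by side at 13 ribosomal protein events, of which 5 were higher in OE, 0 lower and 8 equal. Second values could be at 39 events, of which 28 were higher, 8 lower and 3 equal, against 65, 25 and 54 of 144 events of other genes. Within a genotype the second value was above the first at 5 and below it at 4 of 11 comparable events in OE, and above at 9 and below at 7 of 25 in WT. Other genes leaned to the second value in both genotypes, 48 against 6 in OE and 68 against 19 in WT. The shift between the first and second values in other genes was thus not seen in the counts of direction for ribosomal protein events, a difference that was not tested.

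**Figure D3:**
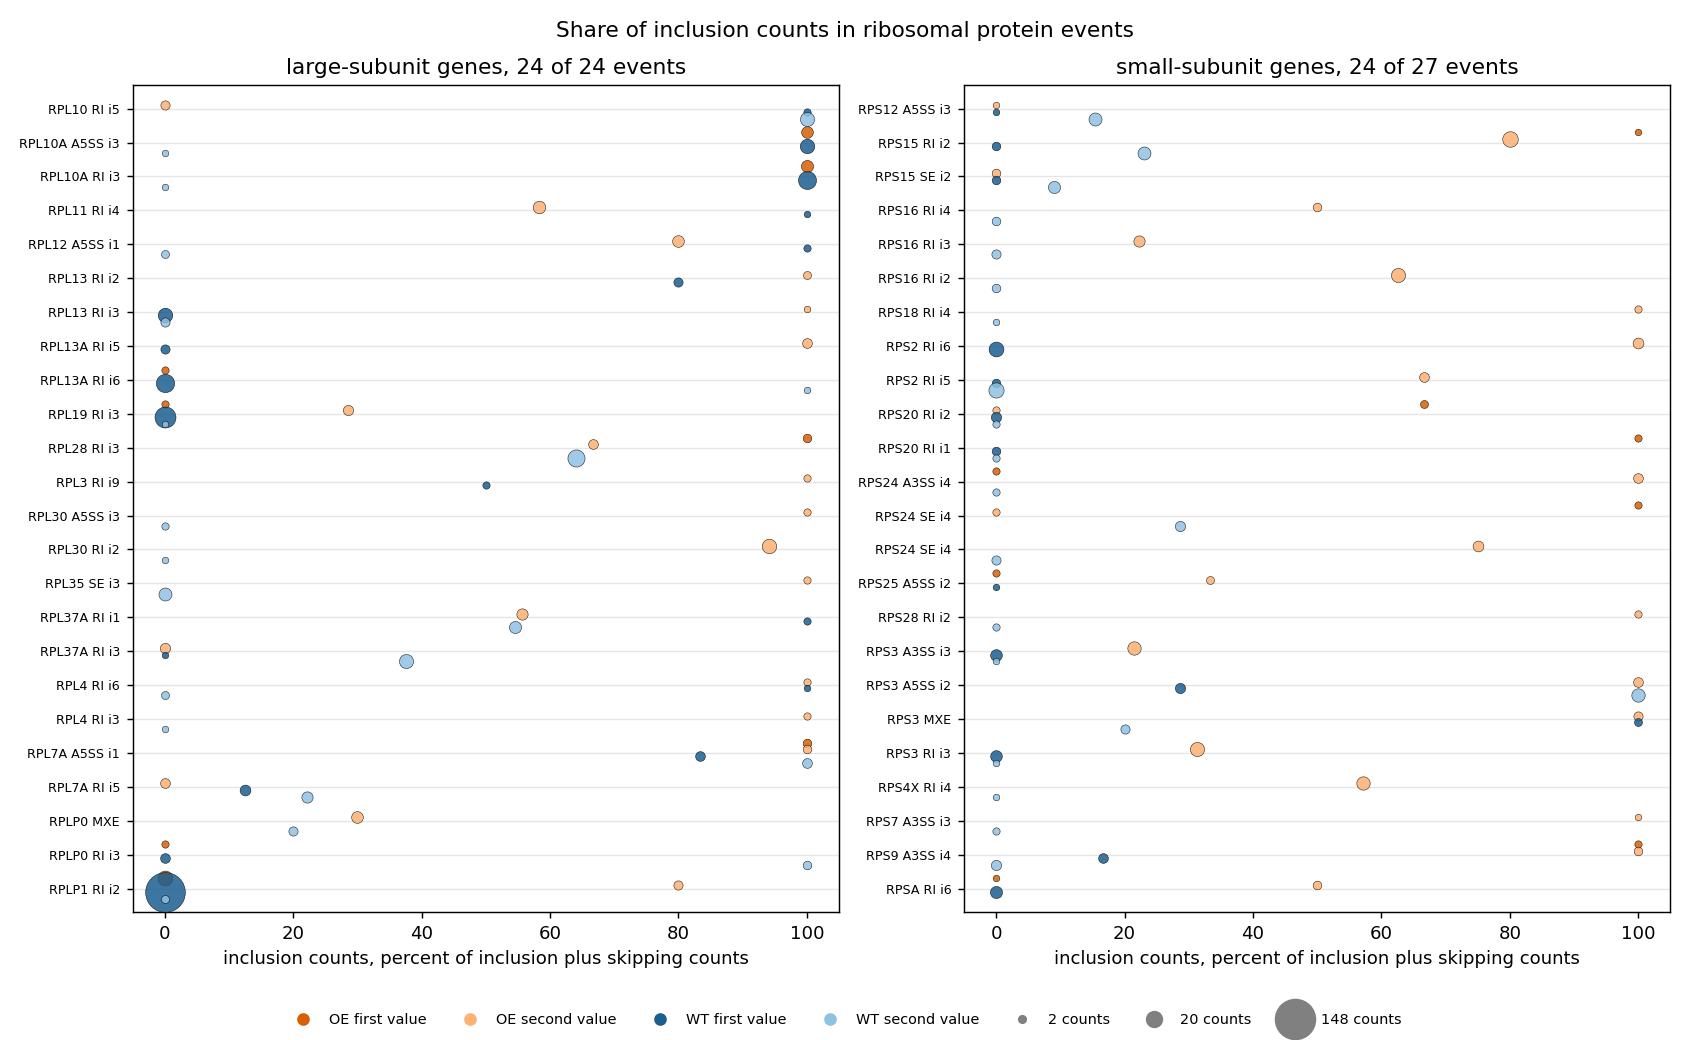
Share of inclusion counts (x axis, percent) at 48 of the 51 events, large-subunit genes left (24 events) and small-subunit genes right (24 of 27), with 1 point per value that holds counts; labels give gene, event class and intron number, and point size gives the number of counts. Most points sit at 0 or 100 with few counts, and RPLP1 in the first WT value is the largest with 148.

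OE was tested against WT at each event with at least 10 counts in each genotype, with first values set against first and second against second (exact stratified test, two-sided, Benjamini-Hochberg over all tested events). It compares these libraries, not the conditions, and it takes the first value to be the same kind of library in OE and WT. Of 32 events tested over all genes, 1 was called at an adjusted p under 0.05, a background of 3.12%. Among ribosomal protein events 7 were tested, in RPS15, RPLP1, RPL28, RPL10A (2) and RPS3 (2), and 1 was called, the intron of RPS15. Only 2 of the 7, RPS15 and RPL28, had counts with which an unadjusted p under 0.05 could be reached at all. For the other 5, no split of these counts could have been called.

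RPS15, a protein of the head of the small subunit near the decoding site, had higher retention in OE. The intron is intron 2 of 3 of transcript RPS15-209 (chr19:1438893-1440018, 1126 bases). In OE the first value held 1 inclusion and 0 skipping counts, and the second 16 and 4. In WT the first value held 0 inclusion and 4 skipping counts, and the second 3 and 10. Both OE values were above both WT values, with 80.0% (56.3 to 94.3) against 23.1% (5.04 to 53.8) in the second. The exact stratified test gave p = 0.000488 and an adjusted p of 0.0156, and second values alone gave an adjusted p of 0.0154 in Fisher's exact test. Most counts lay in the second values, since the first held 5 in all. With every event of at least 1 count per genotype tested, the adjusted p of RPS15 was 0.0766 in the exact stratified test and the call was lost. In the authors' deposited table the p of the event was 0.222.

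The skipped exon of RPS15 lies inside the same intron (221 bases, in coding transcript RPS15-208) and is read against the same junction. It had 0 inclusion and 4 skipping counts in the second OE value and no count in the first. The WT values held 0 inclusion and 4 skipping counts, then 1 and 10. Inclusion of this exon was thus at most 1 count in any value.

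RPS9 was the single event with an FDR under 0.05 in the authors' deposited table, 1 of 471 events or 0.212%. RPS9 sits near the entry of the messenger RNA channel of the small subunit. The event is an alternative 3′ splice site in intron 4 of 4 of RPS9-201 that adds 845 bases (chr19:54206553-54207397), a form annotated in the coding transcripts RPS9-205 and RPS9-207. In OE the first value held 2 inclusion and 0 skipping counts, and the second 4 and 0. In WT they were 1 and 5 in the first value, and 0 and 7 in the second. The OE values held the long form alone, and the WT values almost only the short one. In the authors' deposited table the p was 1.59e-09, the FDR 9.06e-08 and the inclusion level difference 0.986. With 6 counts in OE the event fell under the minimum of 10. At a minimum of 5 the exact stratified test gave an adjusted p of 0.0146, and its unadjusted p of 0.000325 was the smallest that these counts can give.

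RPLP1, an acidic protein of the stalk that recruits translation factors, held more counts than any other ribosomal protein event and nearly all were skipping counts. Its intron 2 of 3 (chr15:69453722-69455169, 1448 bases) had 0 inclusion and 18 skipping counts in the first OE value and 4 and 1 in the second. In WT the counts were 0 and 148 in the first value and 0 and 3 in the second. Inclusion was found only in the second OE value, and the first values were at 0 in both genotypes. The stratified exact test gave p = 0.143, the smallest possible, and an adjusted p of 0.571. With the values added, Fisher's exact test gave an adjusted p of 0.00256, where 9 of 32 events of all genes were called (28.1%, ribosomal protein events 2 of 7, RPLP1 and RPS15). With first values set against second ones, the adjusted p was 3.65e-06 for RPLP1 in the exact stratified test, where 11 of 32 events were called (34.4%, again RPLP1 and RPS15 among 7). The call for RPLP1 thus turned on how the values were paired, and that for RPS15 did not.

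RPL28, a protein of the large subunit, did not pass the test, although its counts could have reached the threshold. Its intron 3 of 4 (chr19:55386694-55387929, 1236 bases) had 4 inclusion and 0 skipping counts in the first OE value and 4 and 2 in the second. WT had no count in the first value and 16 and 9 in the second. The second values were close, 66.7% (22.3 to 95.7) in OE and 64.0% (42.5 to 82.0) in WT. The adjusted p of the exact stratified test was 1.

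RPL10A, the protein of the mobile L1 stalk beside the tRNA exit site, was read almost only in the first values. Its intron 3 of 5 (chr6:35469028-35469380, 353 bases) had 11 inclusion counts in the first OE value, 28 in the first WT value, and 1 skipping count in the second WT value. The alternative 5′ site in the same intron (258 bases) had 10 and 17 inclusion counts in the first OE and WT values and the same 1 skipping count. No value held both forms, and the adjusted p was 1 for each in the exact stratified test.

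RPS3, which lines the entry of the messenger RNA channel, had 4 events of 4 classes. Its intron 3 of 5 (chr11:75401734-75402351, 618 bases) had no count in the first OE value and 5 inclusion and 11 skipping counts in the second. WT had 0 and 10 in the first value and 0 and 1 in the second. An alternative 3′ site that adds the last 48 bases of that intron, annotated in coding transcript RPS3-201, had 3 inclusion counts in the second OE value and none in WT, against the same skipping counts. All OE counts lay in the second value, where WT held 1 skipping count, and the adjusted p of the exact stratified test was 1 for both events.

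The other RPS3 events were below 10 counts in OE. At the alternative 5′ site (47 bases, the long form being the usual coding one) OE had no count in the first value and 6 inclusion and 0 skipping counts in the second. WT had 2 and 5 in the first value and 14 and 0 in the second. At the mutually exclusive exons, OE had no count in the first value and 5 and 0 in the second, and WT 3 and 0 and then 1 and 4. Neither passed the exact stratified test at a minimum of 5 (adjusted p of 1 and 0.39). The counts of the alternative 5′ site could not have passed, since they allow no unadjusted p under 0.05.

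**Figure D4:**
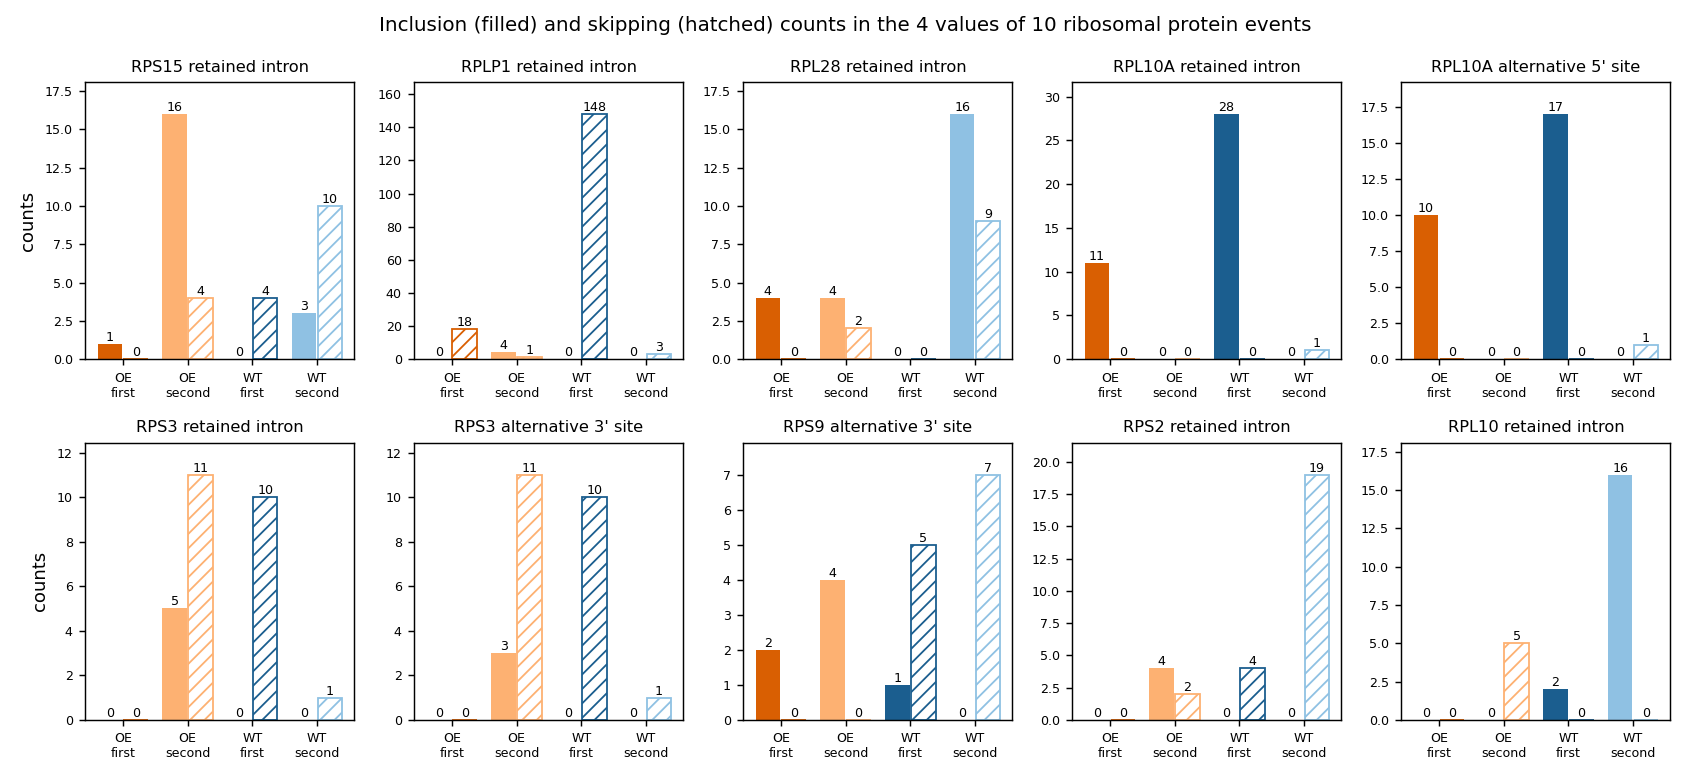
Inclusion counts (filled bars) and skipping counts (hatched bars) in the first and second OE (orange) and WT (blue) values of 10 events, with the count above each bar and a separate y axis per panel. The RPS15 intron reaches 16 inclusion counts in the second OE value against 3 in the second WT value, and RPL10 shows 16 in WT against 0 in OE.

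With single values the test had less to work on. In first values alone, 15 events of all genes were tested by Fisher's exact test and 0 were called (0.0%, with 2 at an unadjusted p under 0.05). The 3 ribosomal protein events among them, in RPL10A and RPLP1, each held a single form in both genotypes. No split of their counts could reach an unadjusted p under 0.05, so their 0 is empty. In second values, 5 events were tested and 1 was called (20.0%), and it was RPS15, the single ribosomal protein event tested. Within a genotype no ribosomal protein event had 10 counts in each value. At a minimum of 5 counts, 7 events of all genes were tested within OE and 4 were called (57.1%), with RPLP1 the single ribosomal protein event tested and called (adjusted p of 0.00132, Fisher's exact test). Within WT, 13 were tested and 5 called (38.5%), with 1 of 5 ribosomal protein events called, the alternative 5′ site of RPS3 (adjusted p of 0.00671, Fisher's exact test). It was the only 1 of these 5 whose counts could reach an unadjusted p under 0.05. The first and second values thus differed within OE in RPLP1 and within WT in RPS3.

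At a minimum of 5 counts per genotype, 90 events of all genes were tested in the stratified test and 4 were called (4.44%). All 4 were among the 25 ribosomal protein events tested: RPS15 and RPS9, above, with intron 5 of 6 of RPS2 and intron 5 of 6 of RPL10. Only 11 of the 25 had counts with which an unadjusted p under 0.05 could be reached, against 28 of the 90. In second values alone 24 events were tested and 3 called (12.5%), the introns of RPS15, RPS2 and RPL10.

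RPS2, a protein of the messenger RNA entry channel that is methylated on arginine, had 2 retained introns. Intron 5 of 6 (chr16:1962657-1962735, 79 bases) had no count in the first OE value and 4 inclusion and 2 skipping counts in the second. WT had 0 and 4 in the first value and 0 and 19 in the second. Inclusion was seen in OE alone, with an adjusted p of 0.0267 in the exact stratified test at a minimum of 5. Intron 6 of 6 (226 bases, with SNORA10) had 8 inclusion counts in the second OE value and 18 skipping counts in the first WT value, and no other count. Its OE and WT counts share no value, so it could not be compared within a value. The annotation names 20 RPS2 pseudogenes, and how reads shared with such copies were counted was not given.

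RPL10, which joins the large subunit late in its assembly and reaches toward the site of peptide transfer, was the single one of these 4 called events that was lower in OE. It ranks 15 by counts and was chosen for description after its values were seen. Its intron 5 of 6 (chrX:154399942-154400463, 522 bases, with SNORA70) had no count in the first OE value and 0 inclusion and 5 skipping counts in the second. WT had 2 and 0 in the first value and 16 and 0 in the second. The WT values held inclusion alone and OE skipping alone, with an adjusted p of 0.00442 in the exact stratified test at a minimum of 5. Because SNORA70 lies inside the intron, its reads may be among the 18 WT inclusion counts, which was not tested. RPL10 has 19 named pseudogenes.

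Of the other large-subunit genes with many counts, RPL19 and RPL13A were read mainly as spliced in WT. RPL19, which forms a bridge between the subunits, had at intron 3 of 5 0 inclusion and 2 skipping counts in the first OE value, 2 and 5 in the second, 0 and 39 in the first WT value and 0 and 1 in the second. RPL13A, known for a role outside the ribosome in silencing inflammatory messages, had at intron 6 of 7 (with SNORD35A) 0 and 2 in the first OE value, 0 and 29 in the first WT value and 1 and 0 in the second WT value. Its intron 5 of 7 (with SNORD34) had 6 inclusion counts in the second OE value and 5 skipping counts in the first WT value alone. In RPL19 and RPL13A the WT counts lay mostly in the first value, as in RPLP1.

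RPL37A and RPL7A had inclusion and skipping counts side by side in WT. The first intron of RPL37A had 5 inclusion and 4 skipping counts in the second OE value, 2 and 0 in the first WT value and 6 and 5 in the second, so the second values were nearly equal. Its intron 3 of 3 had 0 and 7 in the second OE value, 0 and 1 in the first WT value and 6 and 10 in the second. Intron 5 of 7 of RPL7A (with SNORD36A) had 0 and 6 in the second OE value, 1 and 7 in the first WT value and 2 and 7 in the second. Both introns had inclusion in WT and none in OE, and neither passed the exact stratified test at a minimum of 5 (adjusted p of 0.582 and 1). The counts of the RPL7A intron could not have passed, since the smallest p they allow was 0.143 in that test. The alternative 5′ site of RPL7A was read almost only as inclusion, with 4, 4, 5 and 6 inclusion counts in the first and second OE and WT values and 1 skipping count in the first WT value.

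RPS16, whose tail reaches the tRNA in the peptidyl site, had 3 retained introns, all read in second values alone. Intron 2 of 4 had 10 inclusion and 6 skipping counts in OE and 0 and 4 in WT. Intron 3 of 4 had 2 and 7 in OE and 0 and 5 in WT, and intron 4 of 4 had 2 and 2 in OE and 0 and 4 in WT. All 3 introns had inclusion in OE and none in WT. Intron 3 was the one with 5 counts in each genotype, and its adjusted p was 1 in the exact stratified test. The smallest unadjusted p that its counts allow in that test was 0.11, so it could not have been called.

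RPS24, one of the genes mutated in Diamond-Blackfan anaemia, had 3 events that share the 5′ splice site of intron 4. A 22-base exon, present in coding transcripts such as RPS24-202, had 2 inclusion counts in the first OE value, 0 inclusion and 2 skipping in the second, and 2 and 5 in the second WT value. A 2787-base exon annotated in a retained_intron transcript had 6 and 2 in the second OE value and 0 and 5 in the second WT value. The alternative 3′ site that adds 2765 bases had 0 and 2 in the first OE value, 6 and 0 in the second and 0 and 2 in the second WT value. The long forms were seen in OE alone, with an adjusted p of 0.315 for the long exon in the exact stratified test at a minimum of 5.

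Other events with fewer counts were in RPL3, RPL4, RPL11, RPL12, RPL13, RPL30, RPL35, RPLP0, RPS4X, RPS7, RPS12, RPS18, RPS20, RPS25, RPS28 and RPSA. None of them had enough counts to be tested against WT at a minimum of 10. At a minimum of 5, the exact stratified test covered only events of RPL12, RPLP0, RPSA and RPS20, and none was called. The counts of RPSA and RPS20 could not reach an unadjusted p under 0.05. They include, chosen after their values were seen, RPL35, with a 262-base exon annotated in a transcript for nonsense-mediated decay, and RPL12, whose alternative 5′ site had an adjusted p of 0.351 in the exact stratified test at a minimum of 5. Of the 51 ribosomal protein events, 49 had a p of 1 in the authors' deposited table, and RPS9 was the single one with a p under 0.05, of 5 in all genes.

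Inclusion counts of ribosomal protein events were more often even than odd. Of 77 inclusion values above 0, 51 were even (66.2%), 24 of them a 2 and 13 a 1. Of 99 skipping values 46.5% were even, and in other genes 50.5% of inclusion and 46.0% of skipping values. Whether both mates of a read pair were counted was not tested.

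Other parts of the ribosome and other TOP messages had few counts. RACK1, a scaffold protein on the small subunit, had 4 events, and FAU none. Of 18 TOP genes that encode no ribosomal protein, 5 had events (EEF1A1, EEF1D, EIF3E, GAS5 and SNHG5; 12 events). The 1 tested, a skipped exon of the elongation factor gene EEF1D, had 10 inclusion counts in the second OE value, 6 inclusion and 2 skipping in the first WT value and 5 and 0 in the second. Its first OE value was empty and its second values held inclusion alone, so no split of these counts could have been called. At a minimum of 5, 5 of these events were tested and 0 were called in the exact stratified test. Only another skipped exon of EEF1D had counts that could reach an unadjusted p under 0.05. It held 4 inclusion and 2 skipping counts in the first OE value and 2 and 4 in the first WT value.

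The peaks that the authors called on IP over input gave no readout at these genes. None of the 57 WT and 30 OE peaks overlapped an event gene by 1 base or more, and none overlapped any gene named RPL or RPS. A peak list shows only what passed its threshold, so binding below it was not measured.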

How the data were processed

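Values were taken from the authors' deposited splicing tables, which hold inclusion and skipping counts per event as comma-joined pairs. The deposited p-value, FDR and inclusion level difference (a score from -1 to 1) are the authors'. Peaks were called with MACS on IP against input, per the file headers, with −log10 p and q values as deposited. The aligner, the splicing caller and the genome build are not given in the sources used here. All 32 event genes overlapped the RefSeq GRCh38.p14 gene of the same symbol. SAMPLE_1 columns were read as OE and SAMPLE_2 columns as WT, which only the comparison's name supports.

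Counts were left as deposited. Tests were an exact conditional test over the 2 values (strata) and Fisher's exact test, both two-sided, in Python 3.11.15 with scipy 1.17.1, at 10 or more counts per genotype, adjusted by Benjamini-Hochberg over all tested events of the 5 tables with a threshold of 0.05. The exact test was tested on simulated data. Transcripts are those of the deposited annotation. Described individually were all tested events, events with an authors' p under 0.05, the 12 genes with most counts, genes with at least 3 events, RPLP1 and RPS9. The members and lists were chosen with earlier results of these data known. Alternatives were added counts, crossed order, minimums of 1, 5 and 20, identical parts once, Bonferroni and length-corrected shares. The authors' 149-base addition sets the scale of length-corrected shares. A few events are in all counts and sums but are not reported individually here.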

Additional observations from a re-analysis of the deposited data

How the results depend on the processing

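The number of ribosomal protein events called by the stratified test was 1, and it stayed 1 with identical alternative parts counted once, with Bonferroni adjustment and at a minimum of 1 count. At a minimum of 1 the called event was RPL10, and RPS15 had an adjusted p of 0.0766 in the exact test. The number called was 2 with added counts, 2 with crossed order and 4 at a minimum of 5. It was 0 at a minimum of 20, where only RPLP1 was tested and no split of its counts could have been called. Over all genes, 1 of 32 events was called in the main setting, with identical parts once and with Bonferroni. At a minimum of 1 it was 1 of 471, with added counts 9 of 32 and with crossed order 11 of 32. At minimums of 5 and 20 it was 4 of 90 and 1 of 6. In second values at a minimum of 5, 3 ribosomal protein events were called, and 3 of 24 over all genes. Within OE and within WT no ribosomal protein event was tested at a minimum of 10, so the 0 there is empty. At a minimum of 5, 1 was called in each, against 4 of 7 events of all genes within OE and 5 of 13 within WT. Over the settings that tested it, the adjusted p of RPS15 ran from 0.00256 to 0.0766 and that of RPLP1 from 3.65e-06 to 1 in exact tests. Correcting for length lowered the median shares in OE to 73.2% (large subunit) and 21.6% (small) and the large-subunit median in WT to 13.3%, by the longer inclusion form. The peak count stayed 0 at q under 0.05. Single values and pairs of values at a minimum of 20 left no ribosomal protein event to test. No paired analysis was possible because each group held 1 library. Counts per event, with a median of 15 over 4 values, limit every comparison.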
